A study of Mus musculus with 4 samples.

Results

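Elastases, chymotrypsins and carboxypeptidases are the proteases that, beside trypsin, the exocrine pancreas secretes to digest dietary protein. Acinar cells store them as inactive zymogens in granules and release them when cholecystokinin stimulates the cell, and trypsin activates them in the gut. Elastases and chymotrypsins are serine proteases that cut within a chain, after small or after large hydrophobic residues respectively, and carboxypeptidases are zinc enzymes that trim residues from the chain's end. Their genes are switched on in acinar cells by the PTF1 complex, which contains the factors Ptf1a and Rbpjl. In pancreatitis, zymogens that become active inside the acinar cell injure it.

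The signal of 8 of these genes was looked up in pancreas after experimental pancreatitis: Cela1, Cela2a, Cela3a, Cela3b, Ctrb1, Ctrl, Cpa1 and Cpb1. A gene was represented by the array row whose platform annotation named that gene alone. Such a row existed for 7 of the 8, out of 22180 genes with one. The exception was Cela2a, whose only row here was shared with Ctrc. Each of the 7 genes had a single such row, so no choice between rows was needed.

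The series compares Ifrd1 null mice (labelled IFRD1 null, n = 2) with wild-type mice (n = 2), all 8 weeks old, on Affymetrix arrays of total RNA from pancreas. Ifrd1 encodes a transcriptional co-regulator. All 4 mice had received cerulein, a cholecystokinin analog that causes pancreatitis by over-stimulating acinar cells, by intraperitoneal injection at 100 µg/kg, 6 times daily on alternate days, and tissue was taken on day 5. Untreated pancreas is not analysed here, and the sources used here do not give how the null allele was made. The labels call the samples biological replicates.

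Signals are the deposited values, read as log2, and differences are Ifrd1 null minus wild type. The targeted gene, Ifrd1, had a signal of 9.04 and 9.07 in wild type 1 and 2 but 6.99 and 7.09 in Ifrd1 null 1 and 2, so all 4 arrays fit their labels. All 9 measured acinar markers (Ptf1a, Rbpjl, Bhlha15, Nr5a2, Gp2, Sycn, Zg16, Cel and Try4) lay above the array median in every array. The genotypes also differed in sex-linked genes. Xist was at 2.56 and 3.54 in wild type and at 10.15 and 9.58 in the null, and the Y-linked gene Uty at 6.41 and 6.40 against 2.25 and 2.36, so genotype and the sex read from these genes cannot be told apart. Uty was the 1 gene of 22180 that passed the adjusted threshold (0.00451% of genes, limma adjusted p = 0.0206). The targeted gene Ifrd1 did not pass, at a difference of -2.02 (limma adjusted p = 0.138). Nor did Xist, at 6.82 (limma adjusted p = 0.140), so a gene that does not pass may still differ.

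None of the 7 protease genes passed the test between genotypes (0 of 7 at limma adjusted p under 0.05, and 0 of 7 at unadjusted p under 0.05, where 6.91% of all genes had such a p). Their differences ran from -0.22 for Cela3a to 0.05 for Cpb1, with 3 higher and 4 lower in the null (47.2% of all genes were higher), and their median was -0.0077 beside -0.012 over all genes. The limma adjusted p lay between 0.872 and 0.997. The larger contrast was within the null group: all 7 genes were lower in Ifrd1 null 1 than in Ifrd1 null 2, as were 50% of all genes. For 5 of the 7, Ifrd1 null 1 was the lowest and Ifrd1 null 2 the highest of the 4 arrays, a pattern noted after the values were seen. This order held for 10.2% of all genes, and for 37.1% of the 35 other genes with a mean signal above 12, the range in which 6 of the 7 proteases lie. Of the 5, Cela3a, with a mean of 4.68, lies below that range, while Cela1, Cela3b, Cpa1 and Ctrl lie within it.

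**Figure D1:**
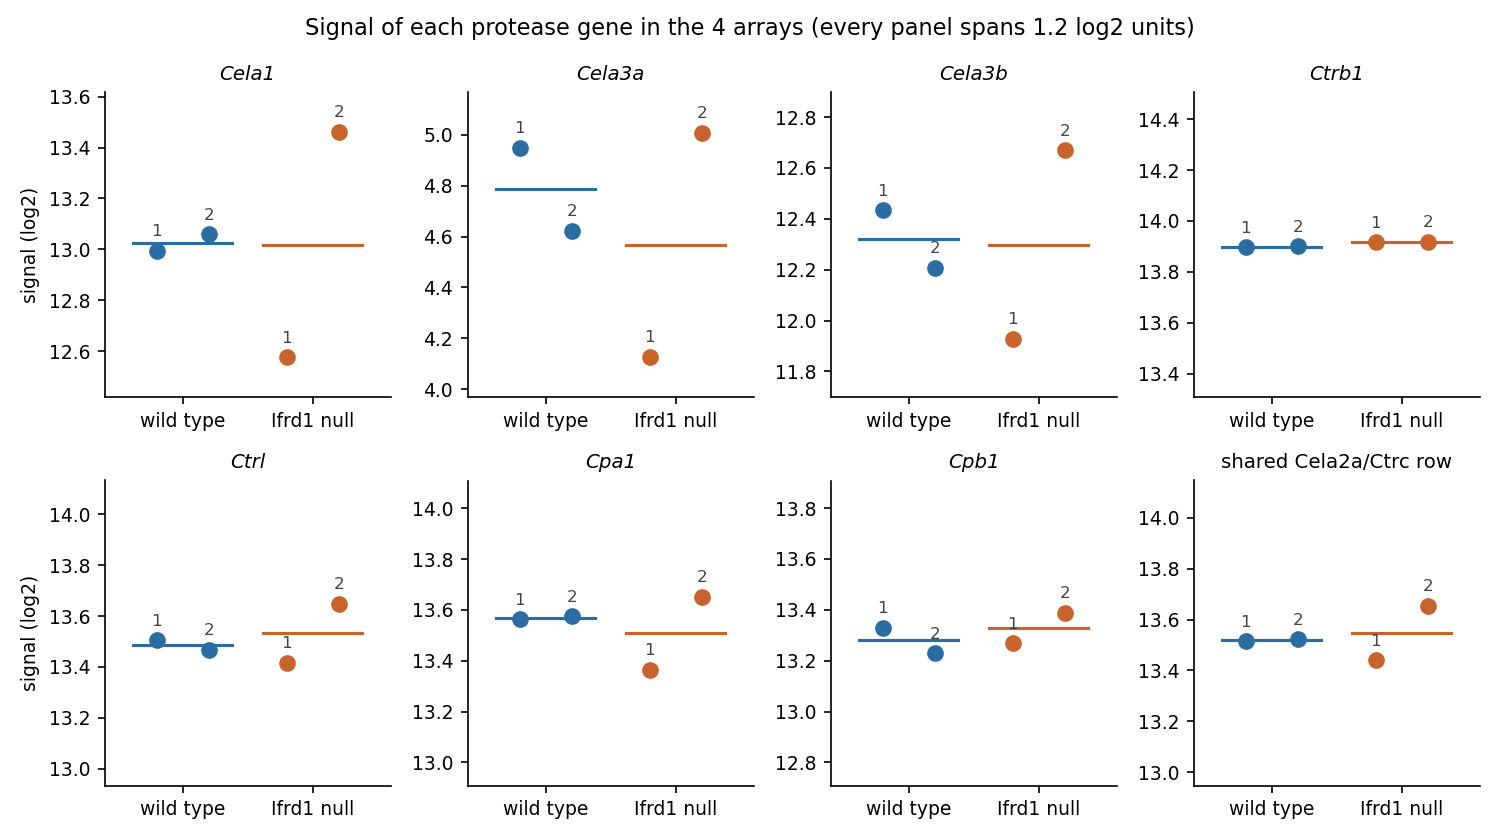
Signal (log2) of the 7 protease genes and of the row shared by Cela2a and Ctrc, by genotype. Points are arrays, numbered as in the labels, lines are group means, and every panel covers the same span of log2 units. In Cela1, Cela3a, Cela3b, Cpa1, Ctrl and the shared row the wild-type points lie between the null points, while the 4 values of Ctrb1 lie within 0.021 of each other.

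Among the bright rows, the elastases Cela1 and Cela3b showed the widest spread. Cela1 encodes elastase 1, an enzyme made by the rodent pancreas. Its signal was 12.99 and 13.06 in wild type 1 and 2 and 12.58 and 13.46 in Ifrd1 null 1 and 2. The wild-type values thus sat close together in the middle of the null values, and the null arrays differed 1.85-fold. The group means were 13.03 ± 0.05 and 13.02 ± 0.63 (SD, n = 2 each), a difference of -0.0077 ± 0.31 (SE) with a 95% interval from -0.85 to 0.83 and a limma adjusted p of 0.997.

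Cela3b and Cela3a are neighbouring genes on chromosome 4, with 0 genes between them in the RefSeq table of assembly GRCm38.p6. Both encode elastases that cut after alanine and act poorly on elastin. Cela3b had 12.43 and 12.21 in the wild-type arrays and 11.93 and 12.67 in Ifrd1 null 1 and 2. Its null arrays differed 1.67-fold and enclosed both wild-type values, so the groups overlapped. The difference of -0.02 ± 0.28 (SE, limma adjusted p = 0.989) had a 95% interval from -0.77 to 0.73.

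Cela3a gave a dim signal, 4.95 and 4.62 in wild type and 4.13 and 5.01 in Ifrd1 null 1 and 2. In Ifrd1 null 1 it lay below the median of all rows on that array (4.15), so signal above background is not shown there. The null values again enclosed the wild-type values, but neither their gap nor the difference between genotypes is exact at this level. The difference was -0.22 ± 0.33 (SE, limma adjusted p = 0.872), with a 95% interval from -1.10 to 0.67. Where transcripts of such related neighbours bind the same probes, the rows cannot be told apart, and the probe sequences were not used here.

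Cela2a, a pancreatic elastase that cuts after larger hydrophobic residues, was dropped for want of a row of its own. The row it shares with Ctrc had 13.51 and 13.52 in wild type and 13.44 and 13.65 in Ifrd1 null 1 and 2, the same order as Cela1. Ctrc lies next to Cela2a on chromosome 4. It encodes chymotrypsin C in other mammals, and the RefSeq table lists the mouse gene as a transcribed pseudogene. The row of Ctrc alone stood at 8.25 and 7.88 in wild type and 7.80 and 8.87 in Ifrd1 null 1 and 2, a 2.10-fold gap between the null arrays, so it too enclosed the wild-type values.

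The chymotrypsinogens lay at the top of the signal range. Ctrb1 encodes chymotrypsinogen B, an abundant zymogen whose active form can also degrade trypsinogen. It was the brightest of 41345 rows on every array, at 13.897 and 13.900 in wild type and 13.916 and 13.918 in the null. Its row was therefore itself the array maximum, and the next brightest row lay between 13.64 and 13.69. The genotype groups of Ctrb1 did not overlap, as for 35.8% of all genes, and no other protease had groups apart. The difference was 0.018 ± 0.099 (SE, 95% interval from -0.25 to 0.28, limma adjusted p = 0.970). This SE comes mainly from limma's moderation over all genes, since the group SDs of Ctrb1 were 0.0024 in wild type and 0.0013 in the null. The gap between the null arrays was 0.0019, below the 10th percentile of 0.039 among the 17 genes with a mean signal from 13 to 14. These 17 include Ctrb1 itself, Cela1, Cpa1, Cpb1 and Ctrl. With its signal at the array maximum, a change in Ctrb1 transcript may not be readable, and whether the signal was saturated was not tested.

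Ctrl encodes a chymotrypsin-like protease. Like Ctrb1 it lies on chromosome 8, with 150 genes between them in the RefSeq table. It stood at 13.50 and 13.47 in wild type and 13.42 and 13.65 in Ifrd1 null 1 and 2, from 0.27 to 0.50 below the array maximum. The null arrays enclosed the wild-type values with a 1.17-fold gap. The difference was 0.05 ± 0.13 (SE, 95% interval from -0.29 to 0.39, limma adjusted p = 0.932).

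Of the carboxypeptidases, Cpa1 encodes carboxypeptidase A1, which removes aromatic and aliphatic residues from the chain's end. Its signal was 13.56 and 13.57 in wild type and 13.37 and 13.65 in Ifrd1 null 1 and 2, from 0.27 to 0.55 below the array maximum. It shared the order of the elastases with a narrower 1.22-fold gap between the null arrays. The difference was -0.06 ± 0.14 (SE, 95% interval from -0.43 to 0.31, limma adjusted p = 0.917).

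Cpb1 encodes carboxypeptidase B1, which removes arginine and lysine. It had 13.33 and 13.23 in wild type and 13.27 and 13.39 in Ifrd1 null 1 and 2, from 0.53 to 0.67 below the array maximum. Ifrd1 null 1 lay between the wild-type arrays, so the groups overlapped and the order of the elastases was absent. The difference was 0.05 ± 0.11 (SE, 95% interval from -0.25 to 0.35, limma adjusted p = 0.917).

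**Figure D2:**
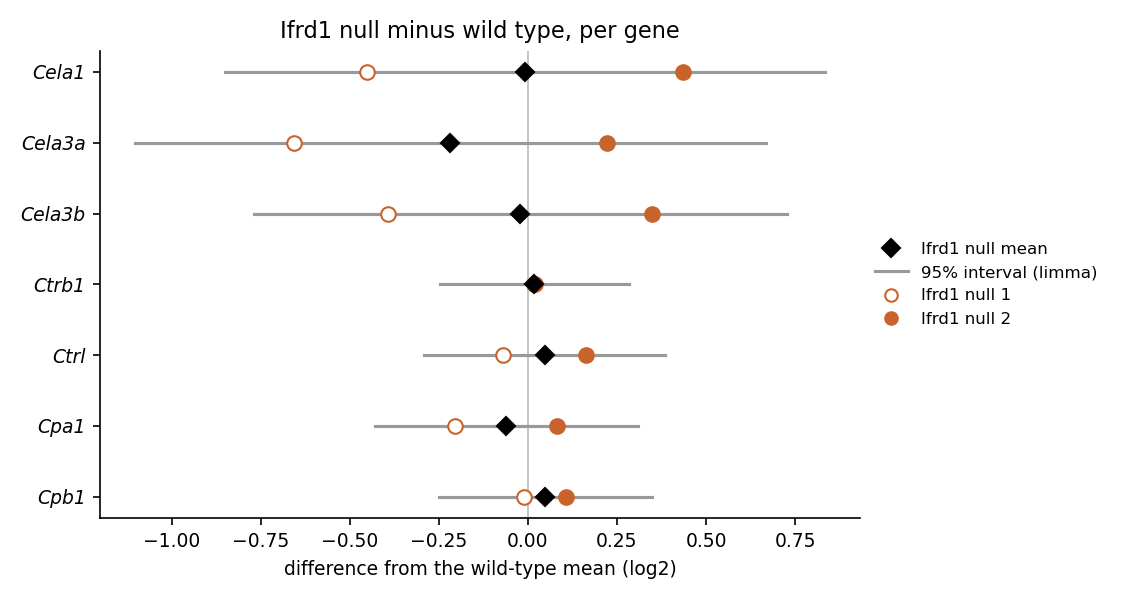
Difference from the wild-type mean (log2) for each protease gene. Diamonds are Ifrd1 null means with limma's 95% interval, open circles Ifrd1 null 1 and filled circles Ifrd1 null 2. Every interval contains 0, and the circles of Cela1, Cela3a and Cela3b lie on opposite sides of 0.

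For 6 of the 7 genes, Ctrb1 being the exception, the absolute difference between genotypes was smaller than the gap between the null arrays. Set against the wild-type mean, the null arrays gave opposite signs in 6 of the 7, Ctrb1 again excepted. Without Ifrd1 null 1 the median over the 7 genes was 0.16, with Cela1 at 0.43 and Cela3b at 0.35, and without Ifrd1 null 2 it was -0.20, with Cela1 at -0.45 and Cela3b at -0.39. The signs of Cela1 and Cela3b turned with cyclic loess (0.0395 and 0.038), and those of Cela3b (0.0031) and Cpb1 (-0.047) with quantile normalization.

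The gap between the null arrays was not the same for all proteases. It was 0.89 for Cela1, 0.88 for the dim row of Cela3a (not exact), 0.74 for Cela3b, 0.29 for Cpa1, 0.23 for Ctrl, 0.12 for Cpb1 and 0.0019 for Ctrb1, while the gaps between the wild-type arrays ran from 0.0034 for Ctrb1 to 0.33 for Cela3a. It was wider than the wild-type gap in 6 of the 7 genes, and the share of all genes with a wider null gap was not counted. Over all genes the median gap was 0.17 between the null arrays and 0.14 between the wild-type arrays. Among all genes the median gap of the null arrays was 0.36 for the 50 genes with a mean signal from 11 to 12, 0.17 for the 24 genes from 12 to 13 and 0.15 for the 17 genes from 13 to 14. In the same order, the median gap of the wild-type arrays was 0.0685, 0.0452 and 0.047. A wider gap between the null arrays was thus general among genes of such high signal, not particular to the proteases. The 3 proteases that came within 0.4 of an array maximum (Ctrb1, Cpa1 and Ctrl) and Cpb1, at least 0.53 below it, had narrower gaps than the elastases. Cela1, with the widest gap, lay 0.46 below the maximum in Ifrd1 null 2 and from 0.84 to 1.34 below it in the other arrays. The part that closeness to the maximum has in these gaps was not tested.

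**Figure D3:**
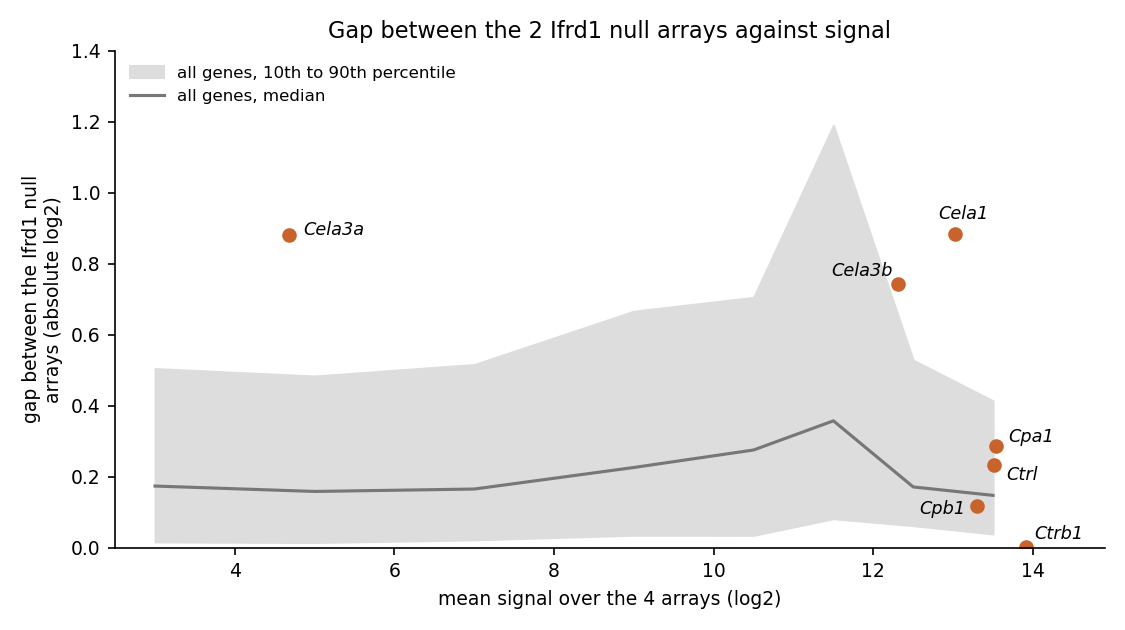
Absolute gap between the Ifrd1 null arrays (log2) against mean signal over the 4 arrays (log2). Orange points are the 7 protease genes. The grey line and band are the median and the 10th to 90th percentile over all genes, the proteases included, in bins of signal. They are joined at bin centres, except that the lowest bin is drawn to the right of its centre. Cela1, Cela3a and Cela3b lie above the band or at its edge, Cpa1, Ctrl and Cpb1 within it, and Ctrb1 at the bottom.

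The promoters of 4 proteases are shown, from RefSeq on build GRCm38.p6, as the 250 bases before the gene's start, 5′ to 3′ on the gene's strand. Cela3a and Cela3b are shown as the neighbouring pair, Cela1 as the gene with the widest gap between the null arrays and Ctrb1 as the one with the narrowest. Capitals mark matches, on either strand, to the E-box CANNTG that basic helix-loop-helix factors such as Ptf1a bind, the core TTCCCA of RBPJ-type sites, the nuclear receptor half-site AAGGTCA and the TATA box TATAAA.
Cela3a, chr4:137409792-137410041, minus strand: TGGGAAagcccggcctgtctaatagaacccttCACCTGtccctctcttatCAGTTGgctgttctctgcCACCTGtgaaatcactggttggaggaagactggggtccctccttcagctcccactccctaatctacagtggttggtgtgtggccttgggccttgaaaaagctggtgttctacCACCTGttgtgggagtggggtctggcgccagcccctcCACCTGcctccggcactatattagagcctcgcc
Cela3b, chr4:137430521-137430770, minus strand: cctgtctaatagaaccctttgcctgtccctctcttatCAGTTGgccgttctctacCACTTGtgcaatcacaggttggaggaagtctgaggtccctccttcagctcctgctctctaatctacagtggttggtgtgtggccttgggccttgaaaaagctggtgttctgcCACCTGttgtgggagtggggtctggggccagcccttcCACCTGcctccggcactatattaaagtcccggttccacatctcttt
Cela1, chr15:100687921-100688170, minus strand: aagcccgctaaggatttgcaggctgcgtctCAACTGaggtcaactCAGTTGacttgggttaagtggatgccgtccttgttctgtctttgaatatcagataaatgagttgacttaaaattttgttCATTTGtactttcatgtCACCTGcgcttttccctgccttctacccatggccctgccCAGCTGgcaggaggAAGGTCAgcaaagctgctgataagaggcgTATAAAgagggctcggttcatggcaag
Ctrb1, chr8:111691011-111691260, minus strand: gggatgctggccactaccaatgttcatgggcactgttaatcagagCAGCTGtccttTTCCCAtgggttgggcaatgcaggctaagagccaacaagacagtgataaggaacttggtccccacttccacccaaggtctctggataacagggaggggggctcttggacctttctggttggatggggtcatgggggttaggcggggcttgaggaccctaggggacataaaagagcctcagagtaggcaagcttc

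The Cela3a and Cela3b windows were 92.4% identical over the aligned bases, and 83.3% with gaps counted, where the other 27 pairs among the 8 listed genes reached 46.3% to 51.7% with gaps counted. So the pair whose array signals stood at 4.68 and 12.31 on average has closely similar letters in these windows. Levels of different rows depend on their probes and are not compared as transcript amounts. The E-box was found 5 times in Cela3a, 4 times in Cela3b, 5 times in Cela1 and once in Ctrb1. All 8 listed genes had at least 1 E-box, as had 66.2% of the 32851 promoter windows in the table. TTCCCA was found in 5 of the 8 (21.6% of all windows), AAGGTCA in Cela1 alone of the 8 (4.08%) and TATAAA in Cela1 alone (12.4%). Matches in the 8 windows did not overlap each other (0 overlapping pairs), and a match is a description of the letters, not a bound site.

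Beyond the 8 genes, the families have other members with roles outside digestion. Of 17 further elastase, chymotrypsin and metallocarboxypeptidase genes listed, 14 were measured, and 0 passed in either direction (0 also at unadjusted p under 0.05). Their median difference was -0.06. Cpe, the carboxypeptidase that trims peptide hormones and the list's highest row, was at -0.11 ± 0.11. The smallest unadjusted p belonged to Cpxm1, a carboxypeptidase-like protein, at -0.28 ± 0.13, and Cpd, a carboxypeptidase of the secretory pathway, at -0.12 ± 0.10 (log2, SE; limma adjusted p = 0.730 and 0.796). Cpa3, the mast cell carboxypeptidase, had Ifrd1 null 1 as the highest and Ifrd1 null 2 as the lowest array, with 5.38 and 5.26 in wild type and 5.46 and 4.59 in Ifrd1 null 1 and 2. The list split evenly between the null arrays, with 6 genes lower and 7 higher in Ifrd1 null 1.

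Activators and inhibitors of the zymogens comprised trypsinogens, enteropeptidase (Tmprss15), cathepsins, serpins, A2m, Spink1 and the carboxypeptidase inhibitor Lxn. Of these 15 measured genes, 0 passed, with a median difference of -0.0075. Prss1, a trypsinogen, stood at 11.42 and 11.26 in wild type and 11.49 and 11.57 in the null, a difference of 0.19 ± 0.12 (SE, limma adjusted p = 0.762). Groups did not overlap in 2 of the 15 genes, where 35.8% of all genes had such groups. These were Prss1 and Try4, another trypsinogen, at 13.07 and 13.02 against 13.12 and 13.23 (difference 0.14 ± 0.11, limma adjusted p = 0.786). Serpina1c, a serpin of the liver, was at 0.29 ± 0.21 from a signal below the array median. Spink1, the trypsin inhibitor of the pancreas, had 11.74 in both wild-type arrays and 11.49 and 11.84 in Ifrd1 null 1 and 2, and Lxn had 8.91 and 9.0 against 8.79 and 9.16, so both had the wild-type arrays between the null arrays. That order held for 6 of the 15, while 4 of the 15 were higher in Ifrd1 null 1 than in Ifrd1 null 2, among them the cathepsin Ctsb (11.89 and 11.65).

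The other secreted enzymes and the granule proteins showed the same order over most of their members. The enzyme list also holds the kallikrein Klk1, itself a protease, and the cofactor Clps. All 9 of its measured genes were lower in Ifrd1 null 1 than in Ifrd1 null 2. In 7 of them the wild-type arrays lay in between. The phospholipase Pla2g1b spanned the most in this list, with 10.87 and 10.75 in wild type and 10.48 and 12.02 in Ifrd1 null 1 and 2. Pnliprp1, a lipase-related protein and the list's brightest row, had a gap of 0.12, and Amy2b, an amylase, was at 0.34 ± 0.32 (SE, limma adjusted p = 0.807). Of 10 granule genes, 8 had that order, among them Sycn, a granule membrane protein, with 12.34 and 12.98 in Ifrd1 null 1 and 2. The exceptions were Stxbp2 and Vamp8, which serve granule fusion, at -0.19 ± 0.10 and -0.13 ± 0.13 (log2, SE). Neither list held a gene that passed (0 of 9 and 0 of 10), and their median differences between genotypes were 0.03 and 0.01.

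The acinar transcription factors, which control these genes, had a list median of -0.23 for Ifrd1 null 1 minus Ifrd1 null 2, where the 7 proteases had -0.29. All 9 measured were lower in Ifrd1 null 1 than in Ifrd1 null 2, but in 1 of the 9 the wild-type arrays lay in between. Ptf1a had 7.90 and 7.91 in wild type and 7.67 and 7.83 in the null, and Rbpjl 9.87 and 9.76 against 9.45 and 9.76 (difference -0.21 ± 0.15, SE). Their list median was -0.15, with Xbp1, the regulator of secretory capacity and the brightest, at -0.16 ± 0.14 and Gata4 at -0.30 ± 0.21 (limma adjusted p = 0.797 and 0.775), and 0 of the 9 passed.

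Markers of several other cell types differed between the null arrays in the opposite direction to the proteases. All 11 macrophage markers, all 8 adipocyte markers, 10 of 11 stellate cell and fibroblast markers, 9 of 11 T and NK cell markers and 8 of 9 B and plasma cell markers were higher in Ifrd1 null 1 than in Ifrd1 null 2. So were 7 of 10 duct, 7 of 9 endothelial and 5 of 8 mast cell markers, while 7 of 11 islet and 10 of 14 intestinal markers were lower. Over all genes, 50% were lower in Ifrd1 null 1. Against the wild-type mean, the B and plasma cell list had a median of 0.70 in Ifrd1 null 1 and -0.25 in Ifrd1 null 2, adipocytes 0.65 and -0.33, macrophages 0.07 and -0.45, stellate cells 0.08 and -0.46, and T and NK cells 0.47 and 0.20, where the 7 proteases had -0.20 and 0.16. The summed signal of the macrophage list was between 12.38 and 12.50 in wild type and between 11.95 and 12.61 in the null (log2 of the sum). For adipocytes these sums were 8.67 to 9.06 and 8.41 to 9.74, for stellate cells 12.91 to 12.97 and 12.54 to 13.18, for B and plasma cells 9.25 to 9.31 and 9.67 to 9.89, and for T and NK cells 7.67 to 7.93 and 7.94 to 8.42. The T and NK cell medians were thus above wild type in both null arrays, with all 11 higher on average in the null. The unadjusted p was under 0.05 for 3 of the 11, where 6.91% of all genes had such a p, and 0 passed the adjusted threshold. In 4 of the 11 the row lay below the median of every array. Within the B and plasma cell list, Derl3, the gene of highest mean, went against the others, at 8.32 and 8.26 in wild type and 7.86 and 9.25 in Ifrd1 null 1 and 2, while Jchain had 8.19 and 5.23 and Ms4a1 6.14 and 3.80 in the null arrays. The sum of that list in Ifrd1 null 2 (9.67) therefore rests largely on Derl3. None of the 102 markers of other cell types was listed at 0, the lowest value being 1.63. In tissue RNA, fewer acinar cells and less protease RNA per cell cannot be told apart, and the part of the other cell types in the protease values was not tested.

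Duct, islet and endothelial markers had medians below the wild-type mean in both null arrays. Duct markers had medians of -0.27 and -0.46 in Ifrd1 null 1 and 2 against the wild-type mean, islet markers -0.32 in both and endothelial markers -0.23 in both. On average in the null, 8 of 10 duct, 9 of 11 islet and 8 of 9 endothelial markers were lower. Higher were Krt20 (0.40) and Sox9 (0.19), Gcg (0.24) and Sst (0.27), and Vwf (0.12). The summed islet signal was 11.63 to 11.82 in wild type and 11.69 to 11.70 in the null. Unadjusted p was under 0.05 for 4 duct, 4 islet and 3 endothelial markers (6.91% of all genes), and 0 passed the adjusted threshold. Mast cell markers had medians of 0.14 and 0.04 and intestinal markers of -0.12 and 0.02, but 6 of 8 and 8 of 14 of these rows lay below the median of every array. Within these lists single markers stood further from wild type, with Kit of the mast cell list at -0.60 ± 0.11 and Vil1 of the intestinal list at -0.97 ± 0.25 (log2, SE; limma adjusted p over 0.05). On average in the null, 5 mast cell markers were higher and 3 lower, and 7 intestinal markers were higher and 7 lower. The intestinal markers Agr2 and Muc2 stood apart in wild type 1, at 6.06 and 5.88 against 3.998 and 4.09 in wild type 2.

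**Figure D4:**
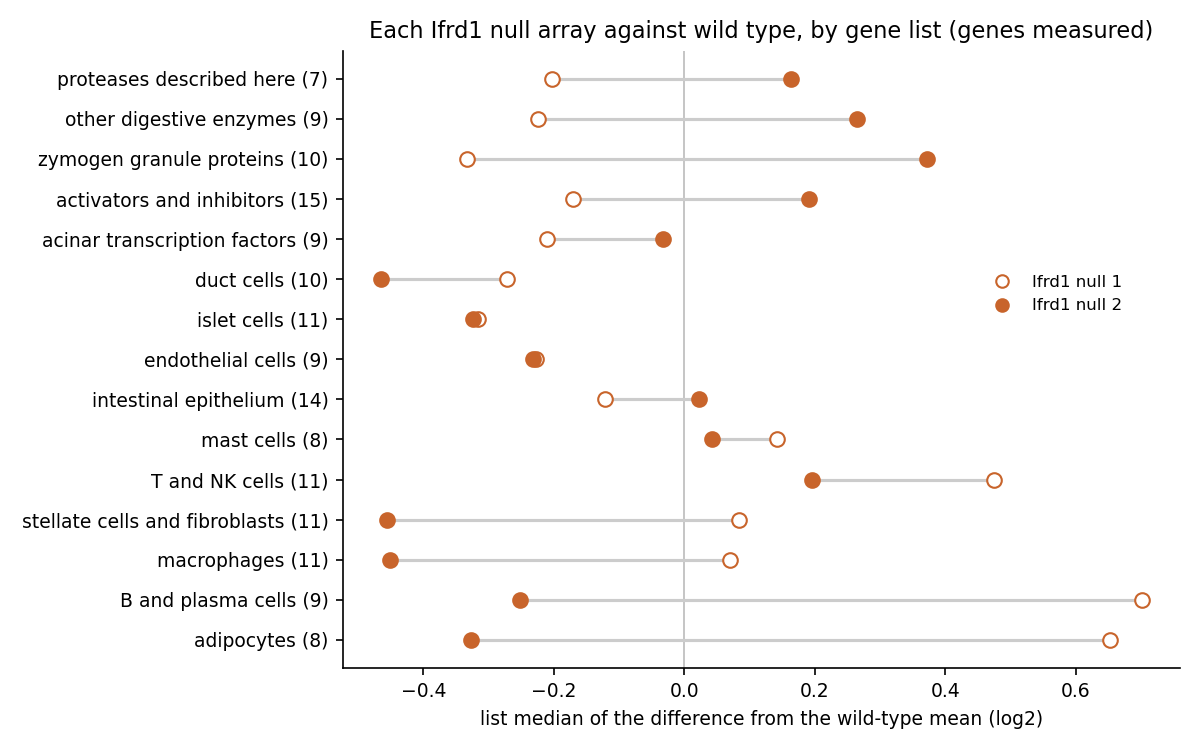
Median difference from the wild-type mean (log2) of each gene list, in Ifrd1 null 1 (open circles) and Ifrd1 null 2 (filled circles), with the number of genes measured in brackets. The proteases, other digestive enzymes, granule proteins, activators and inhibitors, and intestinal epithelium lie below 0 in Ifrd1 null 1 and above 0 in Ifrd1 null 2. B and plasma cells, adipocytes, macrophages and stellate cells lie the other way round.

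The genes whose pattern over the 4 arrays was most like the mean pattern of the 7 proteases were sought among 1233 other genes with a mean signal above 8. The mean pattern was 0.06 and -0.03 in wild type 1 and 2 and -0.24 and 0.21 in Ifrd1 null 1 and 2, relative to each gene's own mean. The closest 5 were Dap, Pnliprp2, Fxyd6, Arf4 and Rnasek, with root mean square differences of 0.018 to 0.023 from it, against 0.18 for the median candidate. Pnliprp2, a pancreatic lipase-related enzyme, had 12.63 and 12.58 in wild type and 12.38 and 12.83 in Ifrd1 null 1 and 2, and Dap had 11.24 and 11.17 against 10.93 and 11.42. The gap between the null arrays was 0.49 for Dap and 0.45 for Pnliprp2, wider than that of Cpa1 and narrower than that of Cela3b.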

How the data were processed

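The authors deposited 1 value per array and transcript cluster, read here as log2 expression from the values' range (0.218 to 13.9). The log base, background correction, probe summary and normalization are not given in the sources used here, so every fold change rests on that reading. Of 41345 rows, 23521 had 1 gene symbol in the platform annotation, 1814 several and 16010 none. A gene was represented by the single-symbol row of highest mean, which left 22180 genes. Groups were compared with limma 3.58.1 (lmFit, eBayes) in R 4.3.3 over all genes, two-sided, with Benjamini-Hochberg adjustment over all genes, a threshold of 0.05, no covariates and no filter on low values. The test was also run on simulated data with independent errors, where every planted difference was larger than those of the proteases. That run does not show whether differences as small as theirs would be found. With 2 arrays a group, an exact permutation test cannot reach that threshold and was not run, and the number of arrays limits the precision. P-values rest on the spread of a gene between these arrays, moderated by limma with the spread over all genes. The proteases and gene lists were chosen with earlier results of these data known. Named genes were the proteases, Ifrd1, the 5 genes of most similar pattern and, of each list other than cell type markers, the highest row and the 2 of smallest unadjusted p; Ctrc, Cpa3, Spink1, Lxn, Ptf1a, Ctsb, the cell type markers with values, Uty and Xist were added after their values were seen. Alternatives were quantile normalization, cyclic loess, median centring, genes above the median level, the mean of a gene's rows, trend with robust eBayes, the replicate number as a block and leaving out each array. Names, gene order and promoters came from RefSeq tables of GRCm38.p6, which held promoters for all 8 genes. The files name no build, and protein sequences were not used here.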

Additional observations from a re-analysis of the deposited data

How the results depend on the processing

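No protease passed the adjusted threshold under any of the 11 alternatives (lowest limma adjusted p = 0.473, Cela1 without Ifrd1 null 1). The median over the proteases ranged from -0.20 to 0.16 with single arrays left out, the ends being without Ifrd1 null 2 and without Ifrd1 null 1, and from -0.03 to 0.04 with all arrays. Over the 4 proteases at least 0.4 below the array maximum, a subset chosen after seeing the data, it was -0.015. Of 77 pairs of protease and alternative, 13 reversed in sign, 4 of them with all arrays: Cela3b (0.0031) and Cpb1 (-0.047) with quantile normalization, and Cela1 (0.0395) and Cela3b (0.038) with cyclic loess. The rest came with an array left out, over which the differences ranged from -0.45 to 0.43 for Cela1, -0.66 to 0.22 for Cela3a, -0.39 to 0.35 for Cela3b, -0.20 to 0.083 for Cpa1, -0.011 to 0.108 for Cpb1, 0.017 to 0.020 for Ctrb1 and -0.069 to 0.16 for Ctrl. The number of genes past the threshold was 4 with cyclic loess, 5 with median centring, 5 with trend and robust eBayes, 0 among genes above the median level, and 0 with each array left out in turn. Deviations of same-numbered arrays from their group means had a correlation of -0.035 across 22180 genes. With 2 arrays a group these deviations mirror each other, so this value cannot show whether the numbers pair arrays. With the replicate number as a block 4 genes and 0 proteases passed, and the protease median was -0.0077. The causes of these changes were not tested.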
